A study of Homo sapiens with 16 samples.

Results

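The results below concern 61 protein-coding genes in the distal part of the short arm of chromosome 5 (5p), of 16197 protein-coding genes tested in at least 1 serum condition. The genes were chosen by measured values: their stretch, from the start of *PLEKHG4B* to that of *MTMR12* on GRCh37, was picked because its genes had a low median fold change between the MDA-MB-436 sublines in both serum conditions. All MDA-MB-436 differences below are therefore descriptions without a test, and the tested comparison is the one between the MDA-MB-231 sublines, whose fold changes did not choose the stretch. The count minimum given next does use the MDA-MB-231 libraries. Of 87 protein-coding genes starting in the stretch, 9 with symbols beginning CDH, SEMA, ADAMTS, NDUF or SDH were left out. Of the other 78, 66 had their identifier in the count tables, and 61 had at least 10 counts over the 8 libraries of a serum condition (60 in low serum, 58 in standard serum, 57 in both).

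MDA-MB-231 and MDA-MB-436 are mesenchymal triple-negative breast cancer lines that stably carry 7TGP, a puromycin-selected plasmid in which TCF/LEF sites drive eGFP when the Wnt pathway is active. Repeated sorting on eGFP gave a bright (7TGP-POS, Wnt-positive) and a dark (7TGP-NEG, Wnt-negative) subline of each line. Each subline is a single sorted population, so the RNA replicates do not repeat the sorting. RNA was taken after 3 days in 0.5% FBS (low serum) and after 6 days in 10% FBS (standard serum), with n = 2 replicates in each of the 8 groups. Low serum libraries were depleted of rRNA and standard serum libraries were selected for polyA, so serum, time and library type cannot be told apart. No test was made between the serum conditions.

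Genes of a chromosome arm need share neither a function nor a regulator. The distal 5p genes include *TERT*, the catalytic subunit of telomerase, *CCT5*, a subunit of the TRiC chaperonin that folds actin and tubulin, *DROSHA*, the nuclease that releases microRNA precursors, and *NKD2*, a Naked cuticle protein that binds Dishevelled and restrains Wnt signalling. The arm is recurrently gained in several human cancers, and DNA was not measured in the data used here.

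Libraries held 27918418 to 46044073 counts. Levels are given as CPM, counts relative to library size after TMM scaling, when one gene is compared between libraries, and as the deposited TPM, which also account for transcript length, when genes are compared with each other. Of the markers checked for the mesenchymal, receptor-negative label, *VIM* was at 369 to 3882 TPM over all libraries, and *CDH1*, *ESR1* and *PGR* did not exceed 0.20 TPM. Not every marker followed the label: *CDH2* and *SPARC* averaged at most 0.65 and 1.21 TPM in the MDA-MB-231 groups, and *EPCAM* and *ESRP1* reached 12.1 and 1.20 TPM. *CDKN2A*, which MDA-MB-231 lacks, averaged at most 0.105 TPM in the MDA-MB-231 groups and 68.7 to 81.2 TPM in the MDA-MB-436 groups. Summed group means were 574 to 4087 TPM for 5 mesenchymal genes (mostly *VIM*), 2.55 to 12.7 TPM for 6 epithelial or luminal genes, at most 4.06 TPM for 3 leukocyte genes, and at most 0.05 TPM for the endothelial gene *CDH5* and 0.03 TPM for the neural crest gene *SOX10*. Replicates of the 61 genes lay close together, with a median absolute difference between replicates of 0.04 to 0.11 on the log2 scale in the 8 groups.

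In MDA-MB-436, nearly the whole stretch was lower in 7TGP-POS than in 7TGP-NEG. In low serum 58 of 60 genes were lower, with a median log2 fold change of -1.38 (0.384-fold) beside 0.01 over all 16069 genes tested. In standard serum 55 of 58 were lower, with a median of -1.43 (0.371-fold) beside 0.00 over 15414 genes. Differentially expressed genes (DEGs, adjusted p under 0.05 with a change of 1 or more on the log2 scale in either direction) numbered 38 lower in low serum, where 4.03% of all genes were lower DEGs, and 43 lower in standard serum, where 6.06% were. None was a higher DEG. Since this contrast chose the genes, these counts describe the choice and are not evidence beyond it. In bulk RNA, fewer cells with a transcript and less transcript in each cell cannot be told apart.

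The summed counts showed the same picture library by library. The genes took 0.777% and 0.776% of the counts on tested genes in the low serum MDA-MB-436 7TGP-NEG libraries and 0.307% and 0.308% in 7TGP-POS. In standard serum the shares were 0.703% and 0.715% in 7TGP-NEG and 0.292% and 0.285% in 7TGP-POS. The MDA-MB-231 libraries held 0.265% and 0.263% in 7TGP-NEG and 0.319% and 0.322% in 7TGP-POS in low serum. Their standard serum shares were 0.233% and 0.228% in 7TGP-NEG and 0.288% and 0.285% in 7TGP-POS. The MDA-MB-436 7TGP-NEG libraries thus stood apart from the other 3 groups, and MDA-MB-436 7TGP-POS overlapped the 7TGP-POS libraries of the other line in standard serum. With 2 libraries against 2 an exact permutation test cannot pass the threshold, so no test was made on shares.

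**Figure D1:**
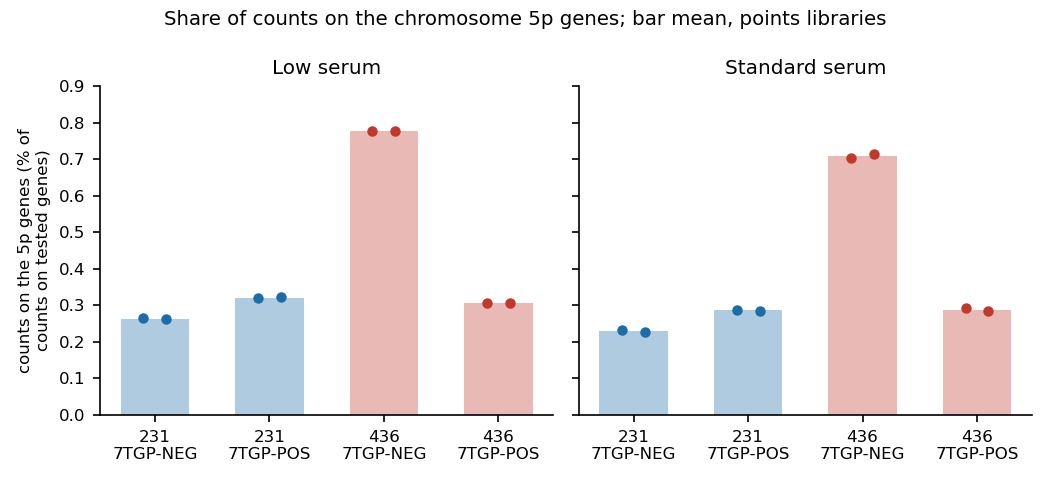
Percent of the counts on tested protein-coding genes that fell on the chromosome 5p genes, by serum condition, with 1 point for each library and a bar at the group mean (n = 2). MDA-MB-436 7TGP-NEG lies at 0.703% to 0.777%, and the other groups lie at 0.228% to 0.322%.

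The level of the genes in MDA-MB-231 7TGP-NEG was closer to that in MDA-MB-436 7TGP-POS than to that in MDA-MB-436 7TGP-NEG. Among genes with at least 1 CPM in both 7TGP-NEG groups, the median in MDA-MB-436 7TGP-NEG was 3.41-fold that in MDA-MB-231 7TGP-NEG in low serum (41 genes, 37 higher) and 3.16-fold in standard serum (39 genes, 34 higher). For MDA-MB-436 7TGP-POS against the same MDA-MB-231 libraries the median was 1.28-fold and 1.21-fold. These values use libraries that chose the genes and are descriptions.

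Along the arm, the lower level in MDA-MB-436 7TGP-POS was not even. In bins of 5 Mb from the 5p end, the median log2 fold change in low serum was -1.45 (24 genes), -1.46 (10 genes), -1.50 (13 genes) and -1.50 (7 genes) up to 20 Mb, and -0.77 for the 5 genes between 30 and 35 Mb. Standard serum gave -1.69 (22 genes), -1.25 (10 genes), -1.32 (13 genes), -1.73 (7 genes) and -0.81 (5 genes) for the same bins. Genes within the first bin differed as well. *CCDC127* was at -0.73 and -0.92 and *PDCD6* at -0.83 and -0.84 (low, then standard serum), whereas *CEP72* was at -1.76 and -1.81.

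The proximal limit of the stretch did not mark the end of the lower values. *MTMR12*, the last gene inside, was at -1.03 and -0.95. The next 4 tested genes outside it were *ZFR* at -0.49 and -0.16, *SUB1* at -1.30 and -1.21, *NPR3* at 1.64 and 0.61, and *TARS1* at -0.98 and -0.83. Over the rest of 5p, with at least 1 CPM, 42 of 46 genes were lower in low serum, with a median of -1.08, and 40 of 44 were lower with a median of -0.81 in the other condition. On the long arm (5q) the medians were 0.03 (512 genes) and 0.15 (488 genes). Part of 5q close to 5p was lower as well, with medians between 50 and 55 Mb of -0.45 in low and -0.50 in standard serum (17 genes). Between 55 and 60 Mb they were -0.41 and -0.06 (9 genes), and between 60 and 65 Mb 0.00 and 0.30 (18 genes). Of the genes left out by symbol, the 4 with at least 1 CPM ranged from -1.85 to 0.56 in low serum and from -1.89 to -0.05 in standard serum. At the count minimum, the lowest totals inside were 11 counts in low serum (*MARCHF11* and *SLC6A19*) and 10 in standard serum (*TAF11L12*), and the highest outside in both conditions were 7 counts, of *SLC6A18* in low serum and *TAS2R1* in standard serum.

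**Figure D2:**
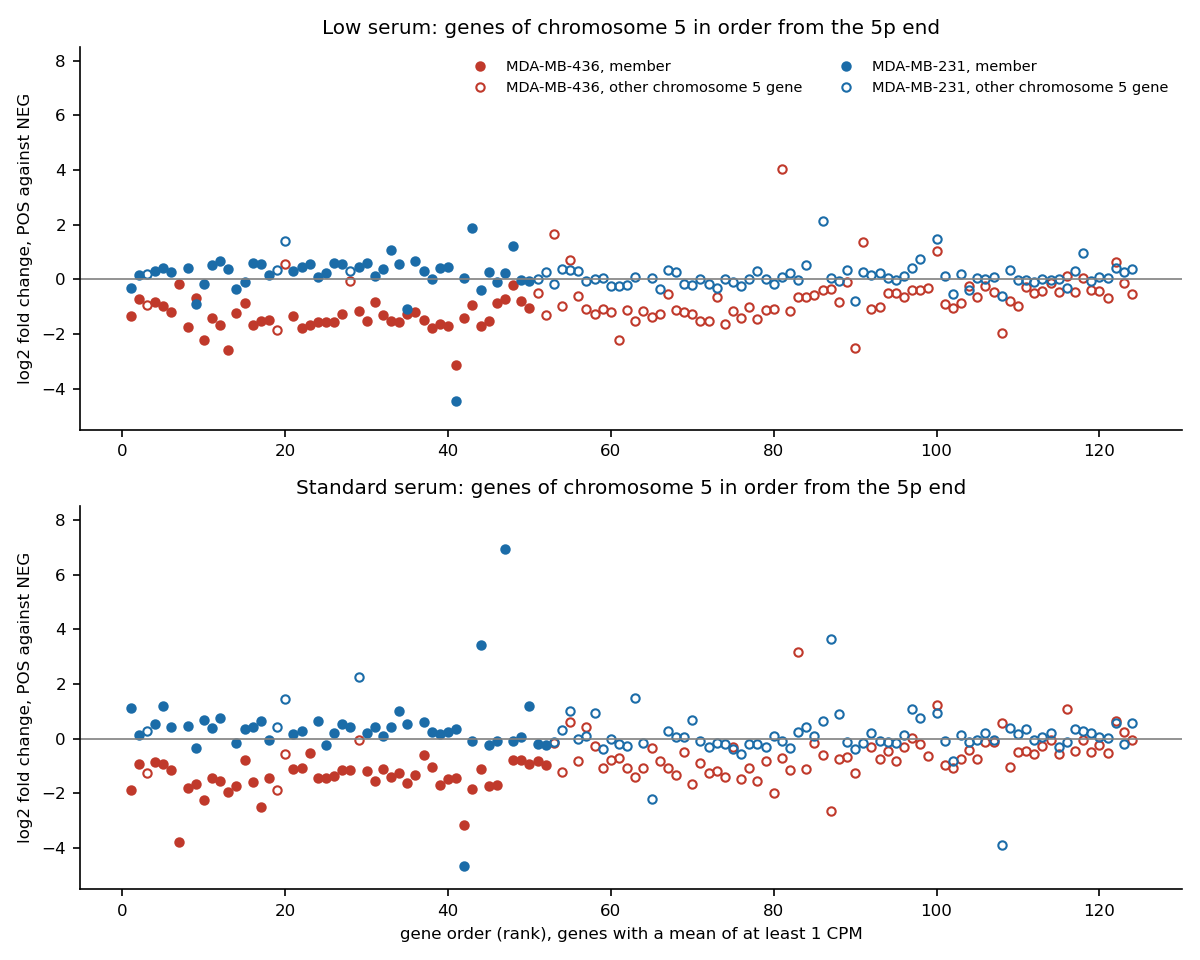
Log2 fold change of 7TGP-POS against 7TGP-NEG (y axis) for the first protein-coding genes of chromosome 5 with a mean of at least 1 CPM, in order of gene start from the 5p end (x axis, rank), by serum condition; filled points are the genes described here, open points other chromosome 5 genes, and a line's point is left out where no library of it exceeds 3 counts. MDA-MB-436 points lie mostly between 0 and -2 over the filled stretch and return toward 0 at the right, and MDA-MB-231 points lie slightly above 0 over most of the filled stretch.

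In MDA-MB-231, whose fold changes did not choose the stretch, more of its genes rose than fell, mostly by less than 1 on the log2 scale. The question here was whether the stretch also differed between the Wnt-positive and Wnt-negative sublines of the second line. In low serum 28 of 60 genes (46.7%) rose in 7TGP-POS, where 19.0% of all genes tested rose, and 5 (8.3%) fell, where 19.9% of all genes fell (edgeR, adjusted p under 0.05). The median log2 fold change was 0.27 beside -0.01 over all genes. In standard serum 23 of 58 (39.7%) rose against 16.8% of all genes, and 3 (5.2%) fell against 16.2%, with a median of 0.18 beside 0.00. With genes of at most 3 counts in a subline's libraries set at the bound that this floor allows, or left out where both sublines were that low, the standard serum median was 0.29. DEGs were 5 of 60 (8.3%) in low serum, where 5.9% of all genes were DEGs, and 7 of 58 (12.1%) in standard serum, where 7.69% were. The 22 genes that rose in both conditions were 78.6% of those that rose in low serum and 95.7% of those in standard serum. In both, 2 genes (*FBXL7* and *IRX1*) fell, and none rose in one condition and fell in the other. The same sublines were used in both conditions and the overlap over all genes was not computed, so these shares only describe the list. Some genes reached the count minimum only with the MDA-MB-231 libraries, 6 in low serum and 3 in standard serum, *IRX1* and *PRDM9* among them in both. Without them, 28 of 54 genes rose and 4 fell in low serum, and 22 of 55 rose and 2 fell in standard serum. The DEG counts above still include *IRX1* in both conditions and *PRDM9* in standard serum.

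These counts held under DESeq2 (26 and 21 rose) and in each fit without a single MDA-MB-231 library (24 to 27 rose in low serum, 19 to 21 in standard serum). On the deposited TPM the low serum rise was smaller. With limma-trend on log2(TPM + 1), 9 of 60 genes rose and 4 fell, beside 19.0% and 19.9% of all genes in the main fit. Shares over all genes were not computed for the alternative fits, so an excess of rising genes on TPM was not shown. The median on TPM was 0.02, while that of all genes moved by -0.12, to -0.13. In standard serum 21 rose on that scale. Of the genes checked one by one, the low serum calls of *PDCD6*, *AHRR*, *CEP72*, *TPPP*, *MED10*, *MARCHF6*, *TRIO*, *OTULIN*, *ANKH*, *BASP1* and *C5orf22* did not pass on it. The standard serum calls of *TRIO*, *OTULIN* and *GOLPH3* did not pass on it either.

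The genes that rose lay mostly within 15 Mb of the 5p end, where most genes of the stretch lie. The bins were not compared by a test, either with each other or with all genes tested, of which 19.0% rose in low serum and 16.8% in standard serum. Bins of 5 or 7 genes are too small to be set apart from these shares. In the bin from 10 to 15 Mb, 9 of 13 rose in low serum and, after 6 days in standard serum, 8 of 13, with medians of 0.44 and 0.24. Between 0 and 5 Mb, 9 of 24 and 8 of 22 rose, and between 5 and 10 Mb 6 of 10 and 4 of 10 rose. Farther in, 2 of 7 and 1 of 7 rose between 15 and 20 Mb, and 2 of 5 and 1 of 5 between 30 and 35 Mb. *PRDM9*, alone between 20 and 25 Mb, is given below as a description. From 15 Mb on the medians were -0.40 and -0.22 (15 to 20 Mb, 7 genes, or 0.04 and -0.08 over the 5 of them with at least 1 CPM) and -0.03 and -0.10 (30 to 35 Mb, 5 genes).

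**Figure D3:**
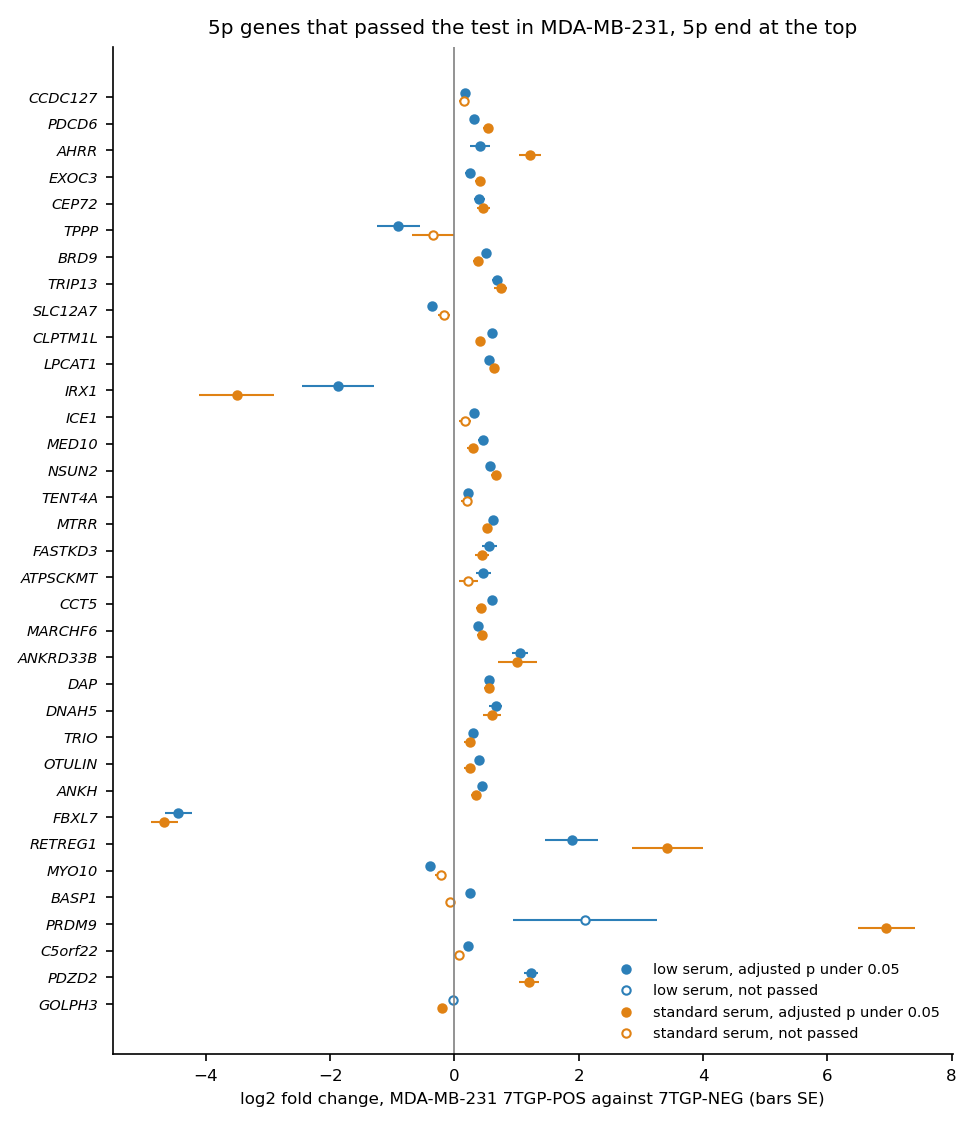
Log2 fold change of MDA-MB-231 7TGP-POS against 7TGP-NEG (x axis, bars SE, n = 2 in each group) for each chromosome 5p gene with an edgeR adjusted p under 0.05 in at least 1 serum condition, ordered from the 5p end at the top; filled points passed and open points did not. Most genes lie between 0 and 1, while *FBXL7* and *IRX1* lie below -1 and *PRDM9*, *RETREG1*, *PDZD2*, *ANKRD33B* and *AHRR* above 1 in at least 1 condition. *IRX1* and *PRDM9* reached the count minimum only with the MDA-MB-231 libraries, so their points are descriptions.

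Upstream sequence was read for the genes because the reporter that separates the sublines is driven by TCF/LEF sites. RefSeq (GRCh38.p14) gave windows for 52 of the 61 genes, 59 windows in all, of which the 250 bases before each start were used. The core of the TCF/LEF site, ATCAAAG on either strand, was present in 2 of these windows (3.39%) and in 279 of 18751 windows (1.49%) of the protein-coding genes tested. The windows of *IRX1* and *DNAH5* held it and are shown for that reason. The windows of *FBXL7*, the gene with the largest fall, and *TRIP13* held no match and are shown for comparison. CpG dinucleotides numbered 1 to 45 in a window, with a median of 28 beside 18 over the genes tested. Capitals mark the 7-base core, or its reverse complement, in *IRX1* and *DNAH5*, and each CpG in *FBXL7* and *TRIP13*; all are written 5′ to 3′ in the sense of the gene.
IRX1 (chr5:3595582-3595831, plus strand): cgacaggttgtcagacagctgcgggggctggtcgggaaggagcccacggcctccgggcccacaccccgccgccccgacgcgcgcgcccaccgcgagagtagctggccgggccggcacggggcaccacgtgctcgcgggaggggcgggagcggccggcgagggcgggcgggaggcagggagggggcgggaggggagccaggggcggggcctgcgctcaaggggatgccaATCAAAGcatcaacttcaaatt
DNAH5 (chr5:13944689-13944938, minus strand): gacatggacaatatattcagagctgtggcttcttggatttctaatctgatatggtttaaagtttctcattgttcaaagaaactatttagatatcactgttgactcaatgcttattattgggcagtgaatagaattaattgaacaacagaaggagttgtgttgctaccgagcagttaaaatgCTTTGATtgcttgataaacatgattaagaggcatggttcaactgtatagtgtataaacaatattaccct
FBXL7 (chr5:15499930-15500179, plus strand): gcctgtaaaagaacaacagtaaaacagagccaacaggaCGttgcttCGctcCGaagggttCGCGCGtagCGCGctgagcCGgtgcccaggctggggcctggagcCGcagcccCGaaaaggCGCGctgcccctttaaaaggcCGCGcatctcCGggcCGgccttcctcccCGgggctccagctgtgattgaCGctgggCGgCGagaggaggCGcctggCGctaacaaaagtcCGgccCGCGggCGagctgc
TRIP13 (chr5:892634-892883, plus strand): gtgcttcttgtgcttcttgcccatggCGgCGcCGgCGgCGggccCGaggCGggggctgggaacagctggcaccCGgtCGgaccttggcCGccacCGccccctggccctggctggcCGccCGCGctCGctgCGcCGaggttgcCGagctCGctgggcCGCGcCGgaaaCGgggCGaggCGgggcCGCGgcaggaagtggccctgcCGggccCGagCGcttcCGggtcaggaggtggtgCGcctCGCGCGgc

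The core ends 15 bases before the start in *IRX1* and its reverse complement 62 bases before the start in *DNAH5*. The *TRIP13* window has 35 CpG and shares 167 bases with a window of *BRD9*, which is read from the other strand, and those of *DROSHA* and *C5orf22* share 207 bases. In MDA-MB-436, *TRIP13* and *BRD9* were both lower in the 7TGP-POS subline, and in MDA-MB-231 both rose. *DROSHA* and *C5orf22* were also lower in MDA-MB-436, as were 58 of 60 genes in low serum. In low serum MDA-MB-231, *C5orf22* rose (log2 fold change 0.22, edgeR adjusted p = 0.0045). There *DROSHA*, at -0.11, did not pass (edgeR adjusted p = 0.11), and neither gene passed in standard serum. Whether genes with shared windows changed together was not tested. A match is a description of these letters and not evidence of binding.

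Of 5 genes of telomeres, cell division and genome upkeep, 3 rose in MDA-MB-231 in low serum, where 19.0% of all genes rose. In standard serum 4 rose, where 16.8% of all genes did, but *PRDM9* among these 4 is given below as a description. None fell in either condition. Neither this count nor those of the other roles below were tested against the shares over all genes. *TRIP13* (ENSG00000071539, chr5:892999-919472, plus strand), an AAA ATPase of the spindle checkpoint, was at 116 and 114 CPM in 7TGP-NEG and 35.8 and 35.9 CPM in 7TGP-POS in low serum MDA-MB-436. In MDA-MB-231 it was at 15.7 and 14.6 CPM in 7TGP-NEG and 24.7 and 24.1 CPM in 7TGP-POS. The ranges of the 2 sublines did not overlap in either line, and the order was opposite. *TRIP13* rose in MDA-MB-231 by 0.68 ± 0.08 (log2, SE) in low serum (edgeR adjusted p = 6.53e-10) and 0.74 ± 0.10 in standard serum (edgeR adjusted p = 1.81e-05), and the MDA-MB-436 difference was -1.68 ± 0.06 and -1.54 ± 0.08. *CEP72*, a protein of centriolar satellites, and *CLPTM1L*, a membrane protein encoded beside *TERT*, also rose in MDA-MB-231 in both conditions, *CLPTM1L* by 0.61 and 0.41.

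*TERT* itself was scarce in every group, at 0.385 to 1.31 TPM. In low serum it was at 1.67 and 1.78 CPM in 7TGP-NEG and 0.603 and 1.33 CPM in 7TGP-POS in MDA-MB-436 and at 2.70 and 1.55 CPM in 7TGP-NEG and 2.44 and 1.52 CPM in 7TGP-POS in MDA-MB-231, where the sublines overlapped. Its MDA-MB-231 difference did not pass in either condition (edgeR adjusted p = 0.84 and 0.32). *PRDM9*, a histone methyltransferase normally confined to meiotic cells, was nearly silent except in one group. In standard serum MDA-MB-231 it was at 0.0313 and 0.0350 CPM in 7TGP-NEG and 4.95 and 4.11 CPM in 7TGP-POS, from 1 and 1 counts against 152 and 138 counts, a ratio of 136 (95% counting interval 37.4 to 1132). Since it reached the count minimum only through these 7TGP-POS libraries, its values are a description, with no test. In low serum it was at 0 and 0.0757 CPM in 7TGP-NEG and 0.150 and 0.205 CPM in 7TGP-POS in MDA-MB-231, 0 and 2 counts against 4 and 5. In MDA-MB-436 it had no more than 1 count in any library.

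Of 11 genes of chromatin, transcription and RNA, 6 rose and 1 fell in MDA-MB-231 in low serum, where 19.0% of all genes rose and 19.9% fell. In standard serum 4 rose and 1 fell, beside 16.8% and 16.2% of all genes. The 1 that fell was *IRX1* in both conditions, which is given below as a description. The median of the 11 genes in MDA-MB-436 was -1.42 and -1.35. *NSUN2* (ENSG00000037474, chr5:6599352-6633404, minus strand), which methylates cytosines in tRNA and other RNAs, was at 399 and 386 CPM in 7TGP-NEG and 127 and 120.4 CPM in 7TGP-POS in low serum MDA-MB-436. In MDA-MB-231 it was at 75.5 and 72.2 CPM in 7TGP-NEG and 111 and 109.6 CPM in 7TGP-POS, without overlap, and it rose by 0.58 ± 0.05 (edgeR adjusted p = 5.63e-12). The standard serum rise was 0.67 ± 0.07 (edgeR adjusted p = 1.08e-06). *BRD9*, the bromodomain subunit of a SWI/SNF complex, and *ICE1*, a subunit of the little elongation complex, rose in low serum by 0.51 and 0.31. In standard serum *BRD9* rose by 0.38, while the 0.17 of *ICE1* did not pass (edgeR adjusted p = 0.17). *MED10*, a Mediator subunit, rose by 0.46 in low serum; its standard serum rise of 0.29 (edgeR adjusted p = 0.011) did not pass without 7TGP-NEG replicate 1, 7TGP-NEG replicate 2 or 7TGP-POS replicate 1 (adjusted p 0.090, 0.055 and 0.092).

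*DROSHA* (ENSG00000113360, chr5:31400601-31532303, minus strand) was among the less lowered genes. It was at 269 and 259 CPM in 7TGP-NEG and 146 and 143 CPM in 7TGP-POS in low serum MDA-MB-436 and at 93.4 and 100.3 CPM in 7TGP-NEG and 87.3 and 92.4 CPM in 7TGP-POS in MDA-MB-231. Its MDA-MB-436 difference was -0.87 and -0.76, and its MDA-MB-231 difference of -0.11 ± 0.05 and -0.10 ± 0.08 did not pass (edgeR adjusted p = 0.11 and 0.34), though the low serum one did without 7TGP-POS replicate 2 (adjusted p 0.042). *ZNF622*, a zinc finger protein of ribosome biogenesis, gave 0.04 and -0.08 in MDA-MB-231 without passing. *AHRR*, a repressor of the aryl hydrocarbon receptor, rose by 1.21 ± 0.17 in standard serum MDA-MB-231, from 1.91 and 2.00 CPM in 7TGP-NEG and 3.81 and 5.22 CPM in 7TGP-POS (edgeR adjusted p = 2.60e-05). Its low serum rise of 0.42 (edgeR adjusted p = 0.033) did not pass without 7TGP-NEG replicate 1, 7TGP-NEG replicate 2 or 7TGP-POS replicate 2 (adjusted p 0.12, 0.10 and 0.25) or by DESeq2 (0.072).

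The Iroquois homeobox genes of 5p differed between the lines in where they were detected. *IRX1* was at 0.751 and 0.736 CPM in 7TGP-NEG and 0.0652 and 0.0596 CPM in 7TGP-POS in standard serum MDA-MB-231, 24 and 21 counts against 2 and 2, a ratio of 12.0 (95% counting interval 4.36 to 45.8). In low serum it was at 0.926 and 0.530 CPM in 7TGP-NEG and 0.300 and 0.0819 CPM in 7TGP-POS, without overlap, and its adjusted p was over 0.05 by DESeq2 and without 7TGP-NEG replicate 1 or 7TGP-POS replicate 2. It reached the count minimum only through the MDA-MB-231 libraries, so these values too are a description. MDA-MB-436 had at most 1 count of it in a library. *IRX2* was instead detected in MDA-MB-436, at 2.63 and 2.60 CPM in 7TGP-NEG and 0.502 and 0.962 CPM in 7TGP-POS in low serum and 1.57 and 1.61 CPM in 7TGP-NEG and 0.206 and 0.255 CPM in 7TGP-POS in standard serum. *IRX4* stayed at or below 0.546 CPM in all libraries.

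Among 7 genes of mitochondria and metabolism, 4 rose in MDA-MB-231 in low serum and 3 in standard serum, and none fell. Over all genes tested, 19.0% rose and 19.9% fell in low serum, and 16.8% rose and 16.2% fell in standard serum. *LPCAT1*, an acyltransferase that remodels phosphatidylcholine, was at 279 and 297 CPM in 7TGP-NEG and 49.6 and 53.0 CPM in 7TGP-POS in standard serum MDA-MB-436, a 5.61-fold lower level in 7TGP-POS beside 2.87-fold in low serum. It rose in MDA-MB-231 by 0.55 ± 0.05 and 0.64 ± 0.07 (edgeR adjusted p = 8.57e-12 and 2.54e-06). *MTRR*, which keeps methionine synthase active, rose by 0.62 and 0.53, and *FASTKD3*, a mitochondrial RNA-binding protein, by 0.56 and 0.44. These 2 genes overlap on opposite strands, so reads could have been shared if strand was not used in counting. *MRPL36*, a mitochondrial ribosomal protein, gave 0.15 and -0.06, *CMBL*, a hydrolase, 0.11 and 0.11, and *SRD5A1*, a steroid 5-alpha-reductase, 0.10 and -0.22 in MDA-MB-231, none of them passing, though *CMBL* did in low serum without 7TGP-POS replicate 1 (adjusted p 0.041).

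The most abundant genes of the stretch in MDA-MB-436 7TGP-NEG were *BASP1* and *CCT5*, with 668 and 592 TPM in low serum. Their standard serum levels were 704 and 622 TPM. *CCT5* (ENSG00000150753, chr5:10250041-10266501, plus strand) was at 1192 and 1209 CPM in 7TGP-NEG and 435 and 400.4 CPM in 7TGP-POS in low serum MDA-MB-436. In MDA-MB-231 it was at 290.2 and 303 CPM in 7TGP-NEG and 434 and 465 CPM in 7TGP-POS. The low serum ranges of both 7TGP-POS sublines overlapped, while those of the 7TGP-NEG sublines lay far apart. *CCT5* rose in MDA-MB-231 by 0.60 ± 0.05 and 0.43 ± 0.08 (edgeR adjusted p = 1.29e-12 and 2.62e-04). Its MDA-MB-436 difference was -1.52 ± 0.05 and -1.53 ± 0.08.

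Of 8 genes of protein folding, ubiquitin and the endoplasmic reticulum (ER), *CCT5* among them, 4 rose and 1 fell in MDA-MB-231 in each condition. Over all genes, 19.0% rose and 19.9% fell in low serum, and 16.8% rose and 16.2% fell in standard serum. *MARCHF6*, an ER ubiquitin ligase, rose by 0.37 and 0.44. *OTULIN*, which cleaves linear ubiquitin chains, rose by 0.40 in low serum; its standard serum rise of 0.24 (edgeR adjusted p = 0.044) did not pass without any one of the 4 MDA-MB-231 libraries (adjusted p 0.084 to 0.21) or by DESeq2 (0.10). *RETREG1*, a receptor for ER-phagy, rose from a trace level, at 0.185 and 0.189 CPM in 7TGP-NEG and 0.749 and 0.656 CPM in 7TGP-POS in low serum (1.89 ± 0.42, edgeR adjusted p = 3.42e-04). In standard serum it had 1 and 1 counts in 7TGP-NEG against 11 and 14 in 7TGP-POS, a ratio of 11.8 (95% counting interval 2.93 to 102.5, edgeR adjusted p = 1.25e-04). MDA-MB-436 held far more of it, at 43.2 and 44.1 CPM in 7TGP-NEG and 23.1 and 23.0 CPM in 7TGP-POS in low serum.

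*FBXL7* (ENSG00000183580, chr5:15500289-15939904, plus strand), the F-box subunit of a ubiquitin ligase, had the lowest log2 fold change of the stretch in MDA-MB-231 in both conditions and in MDA-MB-436 in low serum. In standard serum MDA-MB-436, *MARCHF11*, *SLC9A3* and *ADCY2* were lower still, *MARCHF11* from a handful of counts. In low serum MDA-MB-436 it was at 54.2 and 49.4 CPM in 7TGP-NEG and 4.99 and 6.81 CPM in 7TGP-POS, and in standard serum at 43.7 and 46.6 CPM in 7TGP-NEG and 4.52 and 5.55 CPM in 7TGP-POS. In MDA-MB-231 it was at 9.44 and 10.4 CPM in 7TGP-NEG and 0.487 and 0.410 CPM in 7TGP-POS in low serum and at 6.92 and 6.73 CPM in 7TGP-NEG and 0.261 and 0.268 CPM in 7TGP-POS in standard serum. Within each serum condition, every 7TGP-POS library lay below every 7TGP-NEG library of both lines. It fell 21.8-fold in MDA-MB-231 in low serum (log2 -4.45 ± 0.21, edgeR adjusted p = 1.23e-19) and 25.5-fold in standard serum (-4.67 ± 0.22, edgeR adjusted p = 1.20e-11). In MDA-MB-436 it was 8.83-fold and 9.00-fold lower, a log2 fold change of -3.14 ± 0.10 and -3.17 ± 0.11 beside the medians of -1.38 and -1.43 over the stretch.

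**Figure D4:**
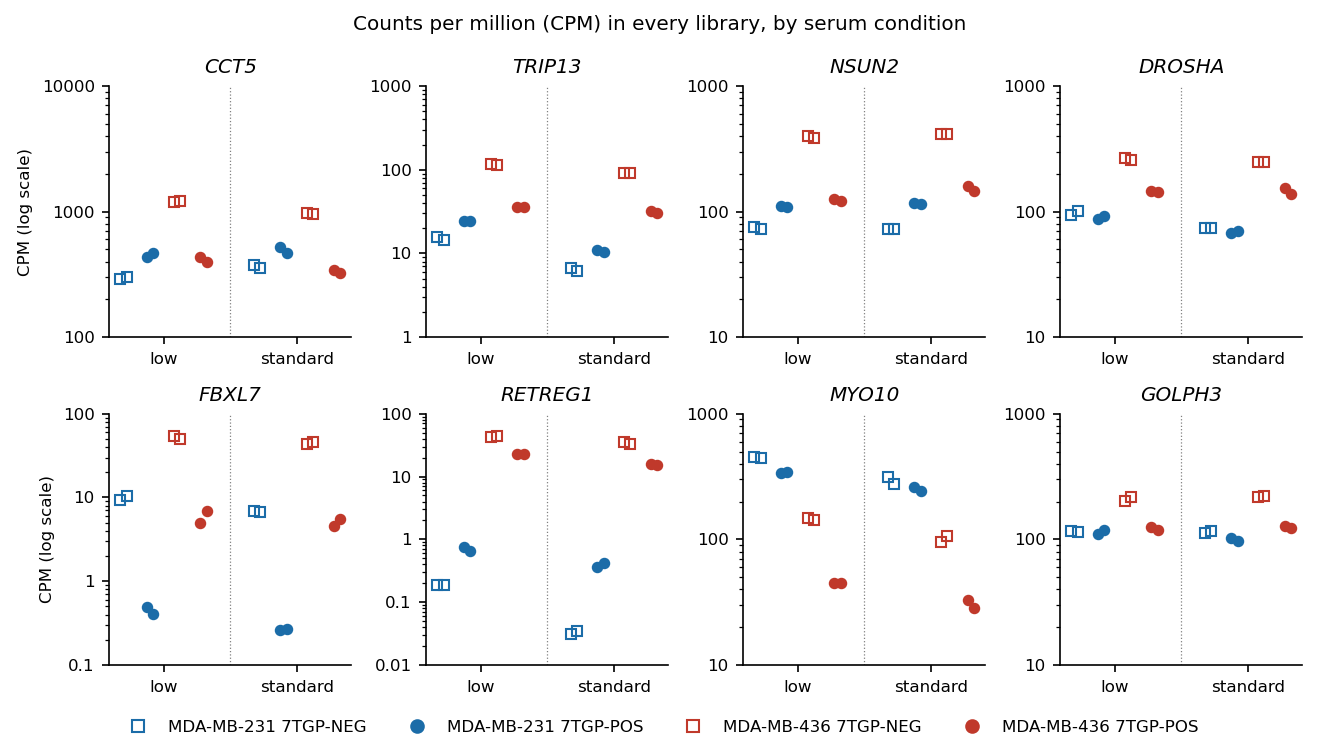
CPM in every library (y axis, log scale, range set for each gene) for 8 chromosome 5p genes in low and standard serum (x axis); open squares are 7TGP-NEG and filled circles 7TGP-POS libraries, blue MDA-MB-231 and red MDA-MB-436. *CCT5*, *TRIP13* and *NSUN2* are lower in 7TGP-POS in MDA-MB-436 and higher in 7TGP-POS in MDA-MB-231, *FBXL7* and *MYO10* are lower in 7TGP-POS in both lines, and *DROSHA* and *GOLPH3* nearly coincide in the MDA-MB-231 sublines.

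Of the membrane transporters, 1 of 5 rose and 1 fell in MDA-MB-231 in low serum, and 1 of 4 rose in standard serum. Over all genes 19.0% rose and 19.9% fell in low serum, and 16.8% rose in standard serum. So few transporters cannot be set apart from these shares. *SLC12A7*, a potassium-chloride cotransporter, was at 229.6 and 229 CPM in 7TGP-NEG and 96.7 and 97.7 CPM in 7TGP-POS in low serum MDA-MB-436 and fell in low serum MDA-MB-231 (38.1 and 37.2 CPM in 7TGP-NEG and 30.6 and 28.2 CPM in 7TGP-POS, log2 fold change -0.35, edgeR adjusted p = 1.16e-05). In standard serum its MDA-MB-231 difference of -0.17 did not pass (edgeR adjusted p = 0.18). *ANKH*, an exporter tied to extracellular pyrophosphate, rose in MDA-MB-231 by 0.44 and 0.34. *SLC9A3*, a sodium/proton exchanger of epithelia, was at 3.11 and 4.23 CPM in 7TGP-NEG and 3.01 and 3.44 CPM in 7TGP-POS in low serum MDA-MB-436, where the sublines overlapped, and at 15.8 and 17.3 CPM in 7TGP-NEG and 1.19 and 1.25 CPM in 7TGP-POS in standard serum, a 13.6-fold difference. It overlaps *EXOC3*, which is read from the other strand. *SLC6A3*, the dopamine transporter, and *SLC6A19*, a neutral amino acid transporter, did not exceed 0.667 CPM.

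Of 12 genes of cytoskeleton, adhesion and trafficking, 5 rose and 2 fell in MDA-MB-231 in low serum, where 19.0% of all genes rose and 19.9% fell. In standard serum 4 rose and 1 fell, beside 16.8% and 16.2% of all genes. *MYO10* (ENSG00000145555, chr5:16662016-16936397, minus strand), a myosin of filopodia, was, unlike most of the stretch, more abundant in MDA-MB-231, at 454 and 442 CPM in 7TGP-NEG and 335 and 346 CPM in 7TGP-POS in low serum. It fell there (log2 fold change -0.40 ± 0.05, edgeR adjusted p = 5.37e-09); the standard serum difference of -0.22 did not pass (edgeR adjusted p = 0.067), but passed without 7TGP-NEG replicate 2 (adjusted p 0.030), with a replicate block (0.049) and with no filter other than a count above 0 (0.048). In MDA-MB-436 it was at 149 and 143 CPM in 7TGP-NEG and 44.9 and 44.9 CPM in 7TGP-POS. *PDZD2*, a PDZ domain protein, was little lowered in low serum MDA-MB-436, at 13.0 and 12.5 CPM in 7TGP-NEG and 11.7 and 10.5 CPM in 7TGP-POS, and rose in MDA-MB-231 by 1.23 ± 0.11 and 1.20 ± 0.16 (edgeR adjusted p = 8.38e-12 and 1.44e-05).

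*TRIO*, a guanine nucleotide exchange factor, rose in low serum MDA-MB-231 by 0.29. Its standard serum rise of 0.24 (edgeR adjusted p = 0.038) did not pass without 7TGP-NEG replicate 2, 7TGP-POS replicate 1 or 7TGP-POS replicate 2 (adjusted p 0.38, 0.17 and 0.096) or by DESeq2 (0.055). *DNAH5*, an axonemal dynein, rose by 0.67 and 0.60. *BASP1*, a membrane-bound protein of neurites, was at 481 and 508 CPM in 7TGP-NEG and 175 and 173 CPM in 7TGP-POS in low serum MDA-MB-436 and rose in low serum MDA-MB-231 by 0.25; in standard serum it was at -0.07 and did not pass. *GOLPH3*, a Golgi protein of vesicle trafficking, was at 117 and 115 CPM in 7TGP-NEG and 109 and 118 CPM in 7TGP-POS in low serum MDA-MB-231, with overlap. It fell in standard serum (log2 fold change -0.20, edgeR adjusted p = 0.042), a call that did not pass without any one of the 4 MDA-MB-231 libraries (adjusted p 0.053 to 0.25). *TPPP*, which promotes tubulin polymerization, fell in low serum (log2 fold change -0.90, edgeR adjusted p = 0.032), which did not pass without 7TGP-NEG replicate 1 or 7TGP-POS replicate 1 (adjusted p 0.21 and 0.23) or by DESeq2 (0.065).

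Of 4 signalling and cell death genes, 2 rose in MDA-MB-231 in each condition and none fell. Over all genes, 19.0% rose and 19.9% fell in low serum, and 16.8% rose and 16.2% fell in standard serum. *NKD2* had the largest MDA-MB-436 difference of the 4 in low serum. It was at 25.3 and 25.0 CPM in 7TGP-NEG and 4.09 and 4.22 CPM in 7TGP-POS in low serum and at 16.5 and 21.5 CPM in 7TGP-NEG and 3.82 and 6.14 CPM in 7TGP-POS in standard serum, 6.06-fold and 3.85-fold lower in 7TGP-POS. In MDA-MB-231 it had at most 0.150 CPM in low serum and no count in standard serum. *DAP*, a death-associated protein, rose in MDA-MB-231 by 0.56 ± 0.05 and 0.56 ± 0.07 (edgeR adjusted p = 2.72e-12 and 1.07e-05), from 166 and 159.6 CPM in 7TGP-NEG and 241 and 238 CPM in 7TGP-POS in low serum. *PDCD6*, the calcium-binding protein ALG-2, rose by 0.31 and 0.54. A transcribed pseudogene, *PDCD6P1*, lies in the same stretch, so the split of its reads is uncertain. *ADCY2*, an adenylate cyclase, was at or below 1.02 CPM throughout.

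The remaining genes named for small MDA-MB-436 differences were *C5orf22*, at -0.73 and -0.79 (its low serum rise in MDA-MB-231, 0.22, did not pass without 7TGP-NEG replicate 2, adjusted p 0.063), *UBE2QL1*, a ubiquitin-conjugating enzyme-like gene, at -0.03 ± 0.25 and -0.54 ± 0.21, and *ROPN1L*, a sperm protein gene, at -0.39 ± 0.32 and -0.51 ± 0.46. *UBE2QL1* and *ROPN1L* were below 4 CPM in every library. The paralogs *ZDHHC11* and *ZDHHC11B*, palmitoyltransferase genes whose reads may be split uncertainly, were at -2.20 and -1.60 in low serum, with -2.24 and -2.04 for the same pair in the other condition. *ANKRD33B* rose in MDA-MB-231 by 1.06 ± 0.13 and 1.01 ± 0.32 (edgeR adjusted p = 9.77e-09 and 0.032). The 9 genes below 10 counts in a MDA-MB-436 7TGP-NEG library (*LRRC14B*, *SLC6A19*, *IRX4*, *IRX1*, *ADCY2*, *MARCHF11*, *TAF11L12*, *H3Y1* and *PRDM9*) averaged at most 4.02 TPM in any group. In MDA-MB-231, 10 of the low serum genes and 11 of the standard serum genes had at most 3 counts in every library, so a difference was not detectable at this depth.

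Non-coding genes and pseudogenes of the stretch, which are no members, are given for comparison from a fit that included them. Of 25 with a mean of at least 1 CPM in a serum condition, the 7TGP-POS level in MDA-MB-436 was the lower one for 21 in low serum (median log2 fold change -0.68) and for 24 in standard serum (median -0.84). Some of them had almost no MDA-MB-436 counts, such as *LINC02211* with 1 and 2 in each subline in standard serum. This contrast chose the stretch, so these counts too are a description.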

How the data were processed

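Bulk RNA-seq was analysed for 16 libraries, 2 for each of 8 groups. The authors removed rRNA reads with Bowtie, aligned the rest to hg19 (GRCh37) with STAR (2.6.1a in the submitters' processing notes, which also name edgeR 3.22.5 and limma) and deposited raw read counts per gene (Gencode v19) and TPM values, whose computation is not given in the sources used here. The strand setting of the counts is likewise not given. Low serum libraries were rRNA-depleted, standard serum libraries polyA-selected per the study's methods, while the labels name a single kit for all.

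From the counts, the protein-coding genes that reached 10 counts over the 8 libraries of their serum condition were fitted with edgeR 4.0.16 (R 4.3.3), with TMM scaling, the robust quasi-likelihood test over 4 groups, and Benjamini-Hochberg adjustment over all genes tested. An SE is the log2 fold change divided by the root of the F statistic. The procedure was tested on simulated data first. CPM are counts over TMM-scaled library size. TPM were used for levels between genes, for summed levels and in 1 alternative (limma 3.58.1, pseudocount 1). Alternatives were DESeq2 1.42.0, other scalings and filters, a replicate block and leaving out each library. Intervals and the floor of 3 counts per library cover counting error only. Because each subline is 1 population, p-values measure the spread between its RNA replicates.

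The genes, their roles and the tests were chosen with earlier results of these data known. Named were the extremes of the MDA-MB-436 difference among genes with at least 10 counts in each MDA-MB-436 7TGP-NEG library. So were the most abundant genes, the smallest adjusted p-values in MDA-MB-231 and the most abundant genes of each role. Scarce genes were named by counts, and the nearest tested genes outside the stretch as neighbours. Those given with values outside this rule (*CCDC127*, *MTMR12*, *BRD9*, *ICE1*, *IRX4*, *FASTKD3*, *SRD5A1*, *DNAH5*, *RETREG1*, *ANKRD33B*) were singled out with their values known.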

Additional observations from a re-analysis of the deposited data

Results flagged for a closer look

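Outside the protein-coding genes, 3 non-coding genes of the same stretch passed the test in standard serum MDA-MB-231 with a log2 fold change of at least 1, in the fit that included all gene types. *SLC9A3-AS1*, antisense to *SLC9A3*, had 93 and 108 counts in 7TGP-NEG and 250 and 548 in 7TGP-POS, a log2 fold change of 1.86 (SE 0.43, edgeR adjusted p = 0.046). The 2 7TGP-POS libraries differed widely. *MARCHF6-DT*, a divergent transcript of *MARCHF6*, had 10 and 9 counts in 7TGP-NEG and 28 and 19 in 7TGP-POS, a log2 fold change of 1.19 (SE 0.43, edgeR adjusted p = 0.040). *SNHG18*, a small nucleolar RNA host gene, had no count in 7TGP-NEG and 8 and 4 in 7TGP-POS (edgeR adjusted p = 0.0031). It was at least 1.91-fold higher against a floor of 3 counts per library, and its fitted value of 5.78 depends on the prior count. In MDA-MB-436 the log2 fold changes in low and standard serum were -0.65 and -2.33 for *SLC9A3-AS1*, -1.57 and -0.83 for *MARCHF6-DT*, and -0.35 and -0.75 for *SNHG18*. Whether strand was used in counting is not given, so reads of *SLC9A3-AS1* and *MARCHF6-DT* cannot be told apart with certainty from those of their neighbours.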

How the results depend on the processing

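No alternative turned a median. Of 78 combinations of a named gene and a serum condition in MDA-MB-231, 57 kept their side of the threshold under every alternative and 21 changed side under at least 1. None that passed changed sign, while 14 that did not pass changed sign under at least 1 alternative. In MDA-MB-436 the low serum median of -1.38 became -1.43 by DESeq2, -1.41 with DESeq2's size factors, -1.43 with TMM scaling without chromosome 5, -1.45 with edgeR's default filter and -1.33 on log2(TPM + 1). The standard serum median of -1.43 became -1.46 by DESeq2, -1.46 with its size factors and -1.01 on log2(TPM + 1). Leaving out 1 library gave -1.46 to -1.41 and -1.45 to -1.40. In MDA-MB-231 the low serum median of 0.27 became 0.025 on log2(TPM + 1), where 13 genes passed in place of 33, and 0.31 with all gene types in the fit, an alternative chosen after seeing the data. Leaving out 1 library gave 0.29 to 0.37 in low serum and 0.14 to 0.24 in standard serum. The share of counts in MDA-MB-436 7TGP-POS over 7TGP-NEG was 0.396 in low serum, 0.385 of all counts and 0.320 by summed TPM.

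The replicates share only a number between groups. With a replicate block, 32 and 29 genes passed in MDA-MB-231 in low and standard serum (33 and 26 without it) and the MDA-MB-436 medians were -1.38 and -1.43, and the correlation of same-numbered deviations was 0.02 and 0.32 in MDA-MB-231 and -0.12 and 0.20 in MDA-MB-436. With the block, *MYO10* and *ZDHHC11*, among the named genes, also passed in standard serum MDA-MB-231. With the count minimum applied to the MDA-MB-436 libraries alone, chosen after seeing the data, 32 and 24 genes passed in MDA-MB-231. Each group had 2 libraries, and each subline was derived once.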
